A study of Caenorhabditis elegans with 9 samples.

Results

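Copper and zinc transport in *Caenorhabditis elegans* was followed through 7 genes: the copper chaperone *cuc-1*, the copper pump *cua-1*, the zinc exporters *cdf-1*, *cdf-2* and *ttm-1*, and the ZIP-family genes *zipt-2.1* and *zipt-2.3*. They were read to ask whether the response to heme extends to other metals. A probe set, the group of oligonucleotides on an Affymetrix array that reads 1 transcript, was taken when its only gene symbol was 1 of the 7. Of the 17118 genes named in this way, all 7 were found, on 10 of the 22548 gene probe sets of the array. *ttm-1* was read by 3 probe sets, *cdf-1* by 2 and the other genes by 1 each.

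The study grew synchronised F2 larvae in mCeHR-2, a liquid medium without bacteria, to which hemin had been added at 4, 20 or 500 µM. Hemin is the oxidised chloride form of heme, which *C. elegans* cannot make and must take up. Whole worms were harvested at the late L4 stage, the last larval stage, and total RNA of 3 biological replicates per concentration (A, B and C) was hybridised to 1 array each, 9 in all. The study set 4 µM and 500 µM against 20 µM, so both of these comparisons share the same 3 arrays at 20 µM; 500 µM was also set against 4 µM here. The 3 groups differed in hemin alone as far as the labels say, and the sources used here do not name the worm strain. Values are log2 expression levels, and a difference between groups is on the log2 scale.

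In animals, copper in the cytosol is carried by chaperones. CUC-1, the worm counterpart of human ATOX1, hands copper to CUA-1, a P-type ATPase like human ATP7A and ATP7B that pumps it into the secretory pathway for export and for loading copper enzymes. Zinc is moved out of the cytosol by cation diffusion facilitator (CDF) proteins and into it by ZIP proteins, and worms store excess zinc in the gut granules, which are lysosome-related organelles of the intestine.

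1 array stood apart from the others. Replicate A at 4 µM had rank correlations with the other arrays of 0.973 to 0.985 over all gene probe sets, while the other 8 arrays correlated among themselves at 0.99 or above. The results below are therefore given with and without it where they rest on it. All 10 probe sets of the 7 genes passed the filter that removed the dimmest 25% of gene probe sets, leaving 16911 tested, although *zipt-2.3* did so narrowly.

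Of the 7 genes, only *cuc-1* passed the test in any comparison. It was higher at 4 µM than at 20 µM hemin, by 1.615-fold, and the other 6 genes did not pass in that comparison or in either of the others. The call on *cuc-1* lay close to the threshold and depended on how the values were processed. In the same comparison *hrg-1*, which encodes a heme transporter, was higher by 15.66-fold, a log2 difference of 3.97 against 0.69 for *cuc-1*.

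*cuc-1* (ZK652.11, chromosome III) had log2 levels of 8.82, 8.70 and 9.13 in worms at 4 µM hemin, against 8.26, 8.20 and 8.12 at 20 µM. Every array at 4 µM lay above every array at 20 µM. The levels were 8.41, 8.10 and 8.39 at 500 µM, so the 500 µM arrays overlapped those at 20 µM and lay below all 3 at 4 µM. The mean levels were 8.89 ± 0.22 at 4 µM, 8.19 ± 0.07 at 20 µM and 8.30 ± 0.17 at 500 µM (SD, n = 3 each).

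The difference of *cuc-1* between 4 and 20 µM was 0.69 (SE 0.13, 95% interval 0.40 to 0.98), with an adjusted p of 0.0425 by limma's moderated test over all 16911 probe sets. Between 500 and 20 µM it was 0.11, with an interval of -0.18 to 0.40 and an adjusted p of 0.969. Between 500 and 4 µM it was -0.58 (SE 0.13, adjusted p = 0.0542), which missed the threshold of 0.05 although the arrays did not overlap. The moderated F-test over the 3 concentrations gave *cuc-1* an adjusted p of 0.0469. The arrays held RNA of whole worms, in which a change in the share of cells that carry a message and a change in the amount per cell cannot be told apart.

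*cuc-1* stood low among the genes that responded to 4 µM hemin. 115 probe sets were called higher and 39 lower at 4 than at 20 µM. Of the 115, 91 had a larger difference than *cuc-1* and 23 a smaller one. Of all 154 calls, 136 had a smaller p-value. The call was kept in 9 of 19 other settings and lost in 10. It was kept without replicate A at 4 µM (difference 0.72, adjusted p = 0.0344) and without replicate B at 500 µM (adjusted p = 0.0464). It was lost on leaving out any 1 of the other 7 arrays, with the highest adjusted p, 0.177, without replicate C at 20 µM. Quantile normalization, centring of each array and a fit of the 6 arrays alone also ended the call (adjusted p of 0.0514, 0.0725 and 0.0997). The difference itself stayed between 0.57 and 0.78 in all 19.

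**Figure D1:**
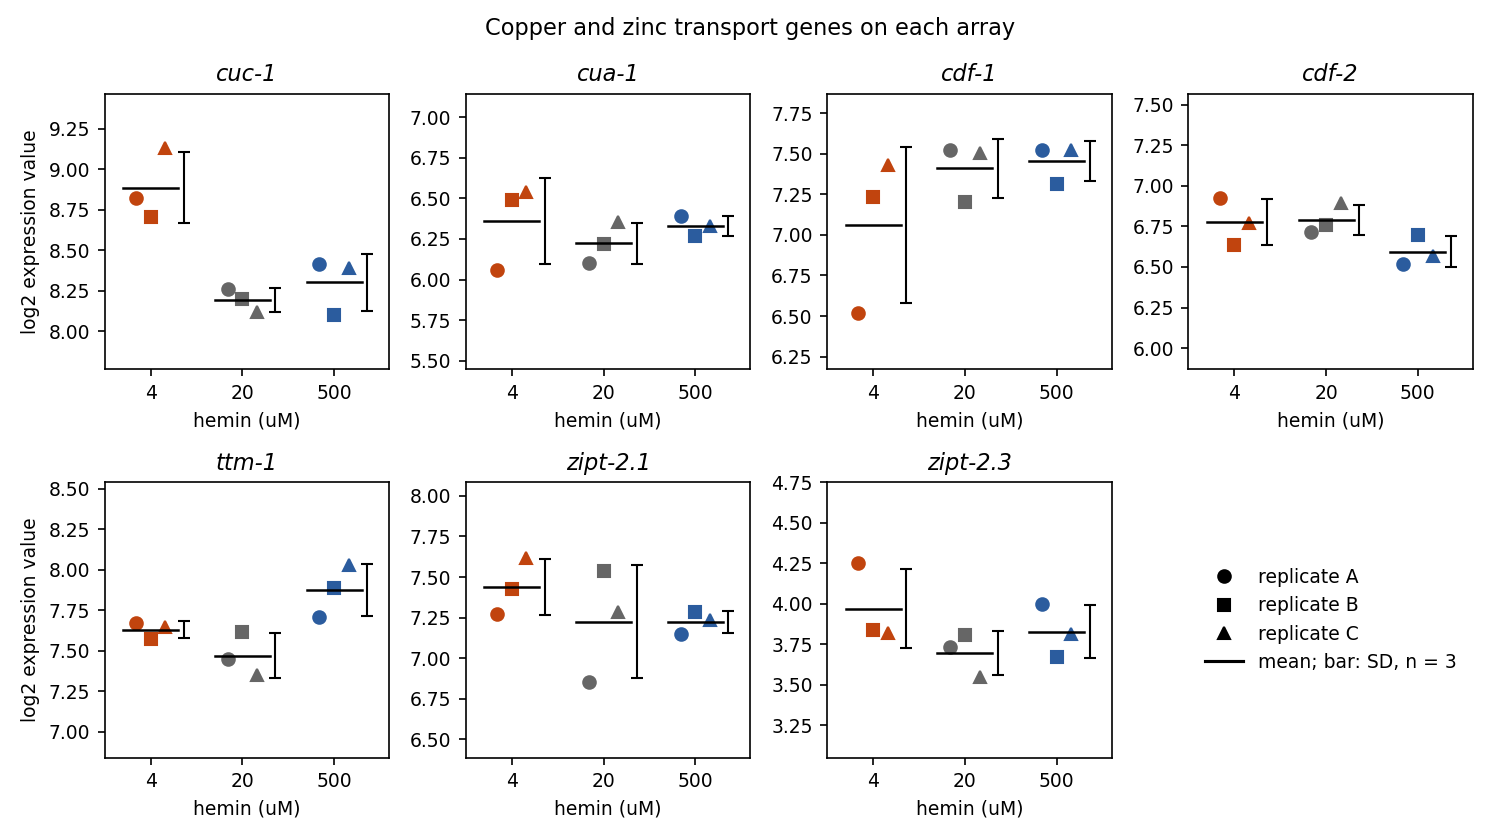
Log2 expression level (vertical axis) of the copper and zinc transport genes on each array, by hemin concentration in µM (horizontal axis), 1 panel per gene. Points are single arrays and bars are group means; for a gene with several probe sets the one with the highest mean is drawn. The 3 arrays of *cuc-1* at 4 µM, 8.70 to 9.13, lay above all arrays at 20 and 500 µM. The groups of *cua-1*, *cdf-1* and *zipt-2.1* overlap throughout, and those of *cdf-2*, *ttm-1* and *zipt-2.3* do not in 1 or more comparisons.

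**Figure D2:**
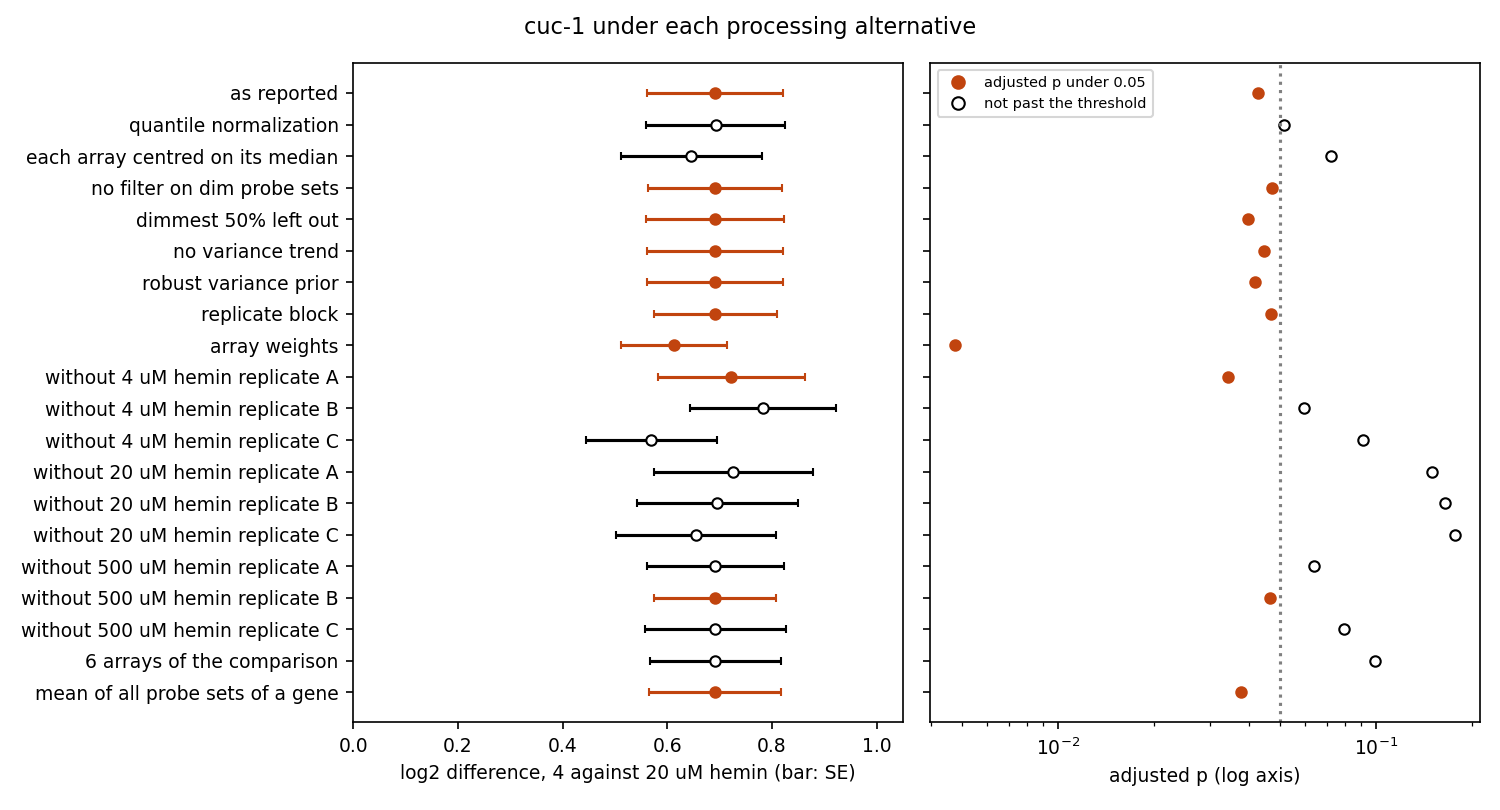
The adjusted p of *cuc-1* for 4 against 20 µM hemin (horizontal axis, log scale) in the fit as reported and under each other setting (vertical axis). The line marks 0.05; array weights gave the lowest value, 0.00476, and leaving out replicate C at 20 µM the highest, 0.177.

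*cua-1* (Y76A2A.2, chromosome III), the pump that receives copper from CUC-1, had log2 levels of 6.06, 6.49 and 6.54 in worms at 4 µM, against 6.10, 6.22 and 6.35 at 20 µM. At 500 µM they were 6.39, 6.27 and 6.33. All 3 groups overlapped, and the lowest level of all was that of replicate A at 4 µM. The mean levels were 6.36 ± 0.27 at 4 µM, 6.22 ± 0.13 at 20 µM and 6.33 ± 0.06 at 500 µM (SD, n = 3 each). The difference between 4 and 20 µM was 0.14, with an interval of -0.16 to 0.44 and an adjusted p of 0.813. That interval overlapped the one of *cuc-1*, and whether the 2 genes differed in response was not tested. The difference of *cua-1* was 0.29 without replicate A at 4 µM (adjusted p = 0.236) and 0.05 without replicate C (adjusted p = 0.904). Between 500 and 20 µM the difference of *cua-1* was 0.11 (interval -0.20 to 0.41, adjusted p = 0.972).

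*cdf-1* (C15B12.7, chromosome X) encodes a zinc exporter of the intestinal cell surface. Its brighter probe set had log2 levels of 6.52, 7.24 and 7.43 at 4 µM, against 7.53, 7.202 and 7.51 at 20 µM, and of 7.53, 7.31 and 7.53 at 500 µM. The groups overlapped, and replicate A at 4 µM was the lowest of all 9 arrays. The second probe set had 6.91, 6.47 and 6.72 at 4 µM, against 6.56, 6.86 and 6.72 at 20 µM, so that here replicate A was the highest of its group. The probe sets therefore disagreed on that array. The difference between 4 and 20 µM was -0.35 (interval -0.82 to 0.12, adjusted p = 0.698) by the brighter probe set and -0.01 (interval -0.33 to 0.30, adjusted p = 0.984) by the second.

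Without replicate A at 4 µM the difference of the brighter *cdf-1* probe set was -0.08. At 500 µM the difference from 20 µM was 0.04 by the brighter probe set (adjusted p = 0.998) and 0.09 by the second (adjusted p = 0.98). *cdf-1* had the widest intervals of the 7 genes, and only its interval and that of *cuc-1* reached past a 1.6-fold difference, the size the study used, in the comparison of 4 with 20 µM.

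*cdf-2* (T18D3.3, chromosome X) encodes the transporter that loads zinc into the gut granules. Its log2 levels were 6.92, 6.64 and 6.77 at 4 µM, against 6.72, 6.76 and 6.90 at 20 µM, and these groups overlapped. At 500 µM the levels were 6.52, 6.699 and 6.57, and each lay below all 3 at 20 µM. The difference between 500 and 20 µM was -0.20 (SE 0.11, interval -0.43 to 0.04) and did not pass the test (adjusted p = 0.81). Between 4 and 20 µM it was -0.01 (interval -0.25 to 0.22, adjusted p = 0.981).

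*ttm-1* (Y39E4A.2, chromosome III) encodes a transporter that excretes zinc from intestinal cells into the gut lumen. Its brightest probe set had log2 levels of 7.71, 7.89 and 8.03 at 500 µM, against 7.45, 7.62 and 7.35 at 20 µM. Every array at 500 µM lay above every array at 20 µM. At 4 µM the levels were 7.67, 7.57 and 7.65, which overlapped those at 20 µM. The mean levels were 7.63 ± 0.05 at 4 µM, 7.47 ± 0.14 at 20 µM and 7.88 ± 0.16 at 500 µM (SD, n = 3 each).

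Between 500 and 20 µM the difference of *ttm-1* was 0.40 (SE 0.11, interval 0.16 to 0.65, unadjusted p = 0.00447), and it did not pass after adjustment over all probe sets (adjusted p = 0.306). It was the only 1 of the 7 genes with an unadjusted p under 0.05 in that comparison. The other probe sets of *ttm-1* gave 0.32 (adjusted p = 0.609), with groups that did not overlap, and 0.24 (adjusted p = 0.777). All 3 probe sets therefore had a positive difference at 500 µM, but they read 1 gene in the same RNA and are not separate evidence. Their names carry the marks _s_at and _x_at, by which Affymetrix denotes probes that may read more than 1 transcript. The only probe set of *cua-1* also carries _s_at. Among genes named beside the 7, so do others, such as the only probe sets of *tbh-1*, *ftn-1*, *hrg-1*, *sod-1* and F27C1.2. The probe sets used for *haf-4*, F21D5.3, *zipt-2.2*, *nep-10* and *rnr-2* carry _s_at too, and the brightest of *mtl-2* carries _x_at. Between 4 and 20 µM the 3 differences of *ttm-1* were 0.16, 0.18 and 0.11, and none passed the test (adjusted p of 0.713 and above).

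*zipt-2.1* (C06G8.3, chromosome IV) belongs to the ZIP family. Its log2 levels were 7.27, 7.43 and 7.62 at 4 µM, against 6.85, 7.54 and 7.29 at 20 µM, and 7.15, 7.29 and 7.24 at 500 µM. The groups overlapped, and the spread was widest at 20 µM (SD 0.35). The difference was 0.21 between 4 and 20 µM (interval -0.15 to 0.58, adjusted p = 0.755). Between 500 and 20 µM it was -0.0024 (interval -0.37 to 0.36).

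*zipt-2.3* (Y54G9A.4, chromosome II) encodes the ZIP protein that releases zinc from the gut granules. It was the dimmest of the 7, with log2 levels of 4.25, 3.84 and 3.82 at 4 µM, against 3.74, 3.81 and 3.55 at 20 µM, where probe sets with a mean under 3.75 over all arrays were left out of the test. At 500 µM the levels were 4.00, 3.67 and 3.82. The arrays at 4 µM lay just above those at 20 µM, by 3.82 against 3.81 at the closest. The difference was 0.27 (interval -0.04 to 0.58, adjusted p = 0.648), and without replicate A at 4 µM, the highest array, it was smaller, at 0.13.

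**Figure D3:**
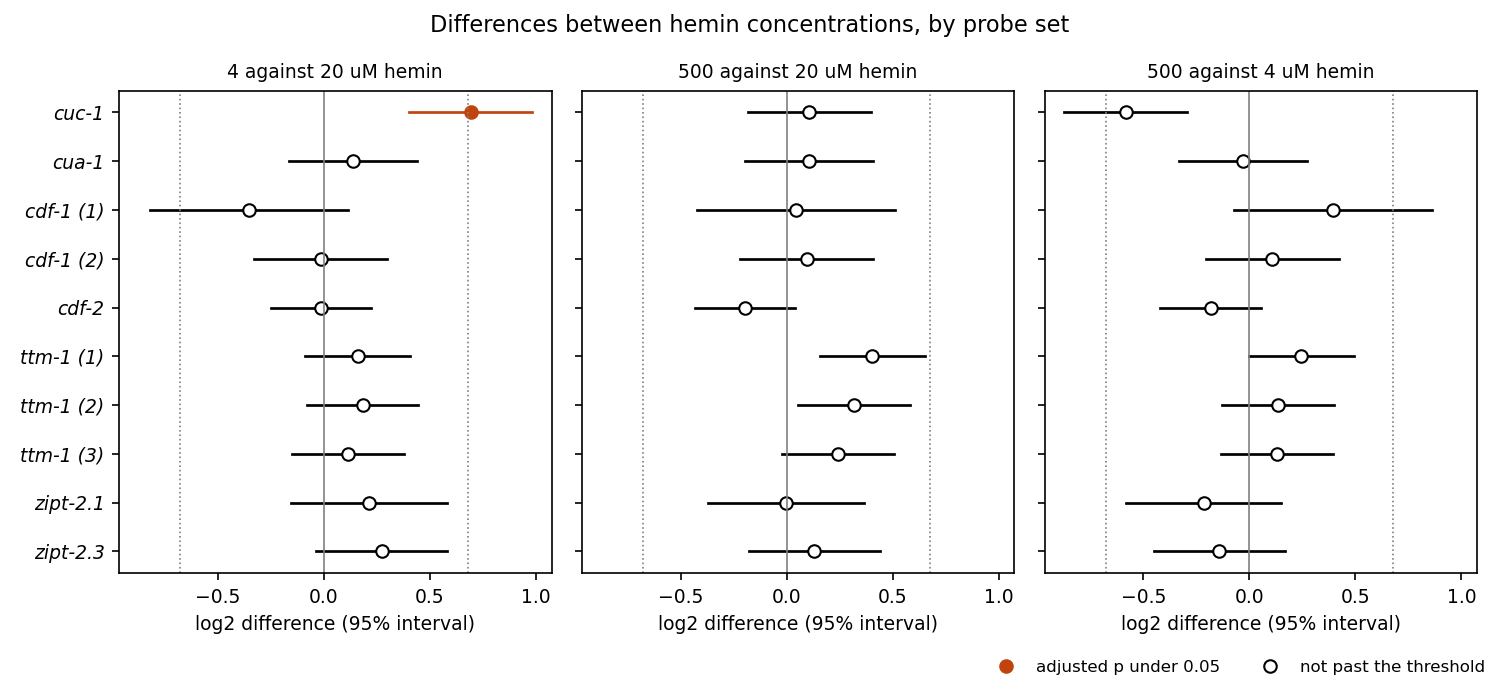
Log2 differences (horizontal axis) with 95% intervals of the 10 probe sets (vertical axis) in 3 comparisons: 4 against 20, 500 against 20 and 500 against 4 µM hemin. Filled points passed an adjusted p of 0.05, open points did not, and dotted lines mark a 1.6-fold difference either way; only *cuc-1* at 4 against 20 µM, 0.69, is filled.

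Counted as genes, 1 of 7 was called at 4 against 20 µM by limma at an adjusted p under 0.05, where 0.911% of all tested probe sets were called. At an unadjusted p under 0.05 the count was also 1 of 7, where the share of all tested probe sets was 8.7%. At 500 against 20 µM, 0 of 7 were called, against 0.242% of tested probe sets. There 1 of 7 (*ttm-1*) had an unadjusted p under 0.05, against 6.65%. At 500 against 4 µM, 0 of 7 were called, against 2.07%, and 1 of 7 (*cuc-1*) had an unadjusted p under 0.05, against 11.9%. The F-test over the 3 concentrations called 1 of 7, against 1.62%. The single call in each case was *cuc-1*, and the 7 genes were not tested as a group.

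The arrays of 2 of the 7 genes (*cuc-1* and *zipt-2.3*, both higher) did not overlap between 4 and 20 µM, where 13.4% of tested probe sets did not overlap. The same count was 2 of 7 at 500 against 20 µM (*ttm-1* higher and *cdf-2* lower), where the share was 16.8%. It was 2 of 7 again at 500 against 4 µM (*ttm-1* higher and *cuc-1* lower), where the share was 14.6%. The median difference over the 7 genes was 0.16 at 4 against 20 µM, where that of all tested probe sets was 0.02, and 0.11 at 500 against 20 µM, where it was 0.01. At 500 against 4 µM the median was -0.14 over the 7 genes and 0.04 over their 10 probe sets, where that of all tested probe sets was 0.00047.

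The precision of the arrays bounded what could be seen. Standard errors of the members' differences lay between 0.11 and 0.21. At 500 against 20 µM the 95% intervals of all 7 genes lay within a 1.6-fold difference in either direction. At 4 against 20 µM those of 5 genes did, the exceptions being *cuc-1* and *cdf-1*.

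Other genes of copper and zinc handling were read in the same fit. The copper list held *cuc-1*, *cua-1* and other genes of copper delivery, such as F27C1.2, F31E8.4 and Y58A7A.1. It also held chaperones of the mitochondrial copper enzyme and enzymes that use copper. Of its 28 genes, 21 were measured and 19 tested. At 4 against 20 µM, 1 of the 19 rose, *cuc-1* itself, and none fell, where 0.911% of all tested probe sets were called. The median difference was 0.04, against 0.02 over all tested probe sets. The superoxide dismutase *sod-1* had a difference of -0.06. Among genes that carry copper to the mitochondrial oxidase, the differences were -0.17 for *cox-17*, -0.08 for *sco-1*, 0.18 for *cox-11* and 0.08 for *cox-19*. None of these 5 passed the test. F27C1.2 (-0.11), F31E8.4 (-0.18) and Y58A7A.1 (0.26) did not pass either.

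At 500 against 4 µM, 1 of the 19 copper genes fell: *tbh-1*, the copper enzyme that makes octopamine, where 2.07% of all tested probe sets were called. Its log2 levels were 5.54, 5.49 and 5.79 at 500 µM, against 6.28, 6.13 and 6.16 at 4 µM, with no overlap. The difference was -0.58 (SE 0.12, adjusted p = 0.0318 by limma). The call was lost in 8 of 18 other settings, among them without replicate A at 4 µM (adjusted p = 0.053), without replicate B at 500 µM (0.149) and with the replicate letter as a block (0.0534). The levels of *tbh-1* were 5.46, 5.68 and 5.75 at 20 µM, and its difference between 4 and 20 µM, 0.56, missed the threshold (adjusted p = 0.0675). At an unadjusted p under 0.05 by limma, 5 of the 19 differed between 500 and 4 µM, against 11.9% of all tested probe sets. *cuc-1*, *tbh-1* and Y58A7A.1 (-0.32) were lower, *tyr-1* (0.68) and F21D5.3 (0.48) higher. At 4 against 20 µM that count was 2 of 19, against 8.7%. At 500 against 20 µM it was 1 of 19, against 6.65%: F21D5.3 (0.57, adjusted p = 0.229).

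Among zinc transporters, 0 of 5 CDF genes and 0 of 14 ZIP genes were called in any of the 3 comparisons or by the F-test of limma. Of all tested probe sets, 0.911% were called at 4 against 20 µM and 0.242% at 500 against 20 µM. At 500 against 4 µM the share was 2.07%, and by the F-test 1.62%. At an unadjusted p under 0.05 there was 1 CDF gene at 500 against 20 µM, *ttm-1*, and no ZIP gene in any comparison. The shares of all tested probe sets were 6.65% at 500 against 20 µM, 8.7% at 4 against 20 µM and 11.9% at 500 against 4 µM. The ZIP genes with the smallest F-test p were *zipt-2.4*, with differences of -0.24 at 4 against 20 µM (adjusted p = 0.596) and -0.23 at 500 against 20 µM (0.786), and *zipt-2.2*, with 0.09 (0.841) and 0.23 (0.758). ZIP differences ran from -0.28 to 0.27 at 4 against 20 µM and from -0.30 to 0.23 at 500 against 20 µM. Their medians were 0.0011 and -0.05. Without replicate A at 4 µM, 0 CDF and 0 ZIP genes were again called. Of all 16911 tested probe sets, that fit called 315 at 4 against 20 µM and 182 at 500 against 20 µM. At 500 against 20 µM, 1 CDF and 3 ZIP genes had an unadjusted p under 0.05 in that fit, for which the share over all probe sets was not counted. With all arrays, the CDF differences ran from -0.35 to 0.16 at 4 against 20 µM and from -0.20 to 0.40 at 500 against 20 µM.

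Genes known to respond to high zinc, among them *cdf-2*, *ttm-1* and the metallothioneins, which are small proteins that bind zinc and other metals, numbered 9, of which 7 were measured and 6 tested. 1 of the 6 was called, *mtl-1*, and at 500 against 4 µM, where 2.07% of all tested probe sets were called. Its log2 levels were 7.15, 7.23 and 7.62 at 500 µM, against 5.94, 6.49 and 6.52 at 4 µM, with no overlap. The difference was 1.01 (SE 0.17, adjusted p = 0.0176 by limma). Without replicate A at 4 µM, the lowest array, it was 0.82 and the call was kept. The call was lost in 3 of 18 other settings, among them without replicate B (adjusted p = 0.0575) or C (0.0698) at 500 µM. At 20 µM the levels of *mtl-1* were 7.19, 7.14 and 6.996, all above those at 4 µM. The difference between 4 and 20 µM was -0.79 and missed the threshold (adjusted p = 0.0918).

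The second metallothionein gene, *mtl-2*, was not called. Its difference between 4 and 20 µM was -0.30 (adjusted p = 0.561), where that of *mtl-1* was -0.79. Between 500 and 20 µM it was -0.43 (adjusted p = 0.436), where that of *mtl-1* was 0.22 (adjusted p = 0.908). *cdf-2* and *ttm-1*, which high zinc is known to raise together with the metallothioneins, differed from 20 µM by -0.20 and 0.40 at 500 µM, and neither passed. *hizr-1*, the nuclear receptor that senses high zinc, was too dim to be tested.

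Of 14 genes listed under gut granules, where CDF-2 and ZIPT-2.3 act, 10 were measured and tested. 0 of the 10 were called in any comparison by limma. Of all tested probe sets, 0.911% were called at 4 against 20, 0.242% at 500 against 20 and 2.07% at 500 against 4 µM. At an unadjusted p under 0.05 there were 2, 0 and 1 of the 10 in the same order, where the shares were 8.7%, 6.65% and 11.9%. The smallest F-test p belonged to *haf-4*, which encodes an ABC transporter. Its brightest probe set had log2 levels of 8.88, 9.37 and 9.44 at 4 µM, against 9.67, 9.46 and 9.63 at 20 µM, with no overlap. The difference was -0.36 (adjusted p = 0.487), and -0.18 (adjusted p = 0.538) without replicate A at 4 µM. The other probe sets of *haf-4* gave -0.27 (adjusted p = 0.572 by limma) and -0.13 (0.78), with groups that overlapped. Without replicate A at 4 µM, 1 of the 10 rose at 4 against 20 µM: *glo-3*, which is needed to form gut granules. Its difference was 0.56 (adjusted p = 0.0304), against 0.41 (adjusted p = 0.369) with all arrays. That fit called 315 of all 16911 tested probe sets, against 154 with all arrays. A second probe set of *glo-3*, too dim to be tested, differed by 0.24 with all arrays, and its groups overlapped.

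Iron genes gave 2 calls among 8 tested at 4 against 20 µM, where 0.911% of all tested probe sets were called. *fpn-1.2*, of the ferroportin family of iron exporters, fell, with a difference of -1.03 (SE 0.10, adjusted p = 0.000849), and *ftn-1*, a ferritin, rose, with 1.66 (SE 0.32, adjusted p = 0.0494). Without replicate A at 4 µM, the highest array of *ftn-1*, its difference was 1.27 (adjusted p = 0.0232). The call on *fpn-1.2* was kept in all other settings, and that on *ftn-1* was lost in 13 of 18, up to an adjusted p of 0.229 without replicate A at 20 µM. The study itself picked 5 heme genes, not all of them transporters, from these samples, so they are no independent measure. Of the 5, 4 rose: *hrg-1*, *hrg-3* (5.66), *hrg-7* (4.01) and *mrp-5* (1.59). *hrg-4* had a difference of 2.46 (adjusted p = 0.144), and of 3.38 (adjusted p = 2.83e-06) without replicate A at 4 µM. *hrg-1* had log2 levels of 10.55, 10.75 and 10.74 at 4 µM, against 6.58, 6.82 and 6.74 at 20 µM. Its difference was 3.97 (adjusted p = 1.99e-07), and that of *cuc-1* 0.69.

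**Figure D4:**
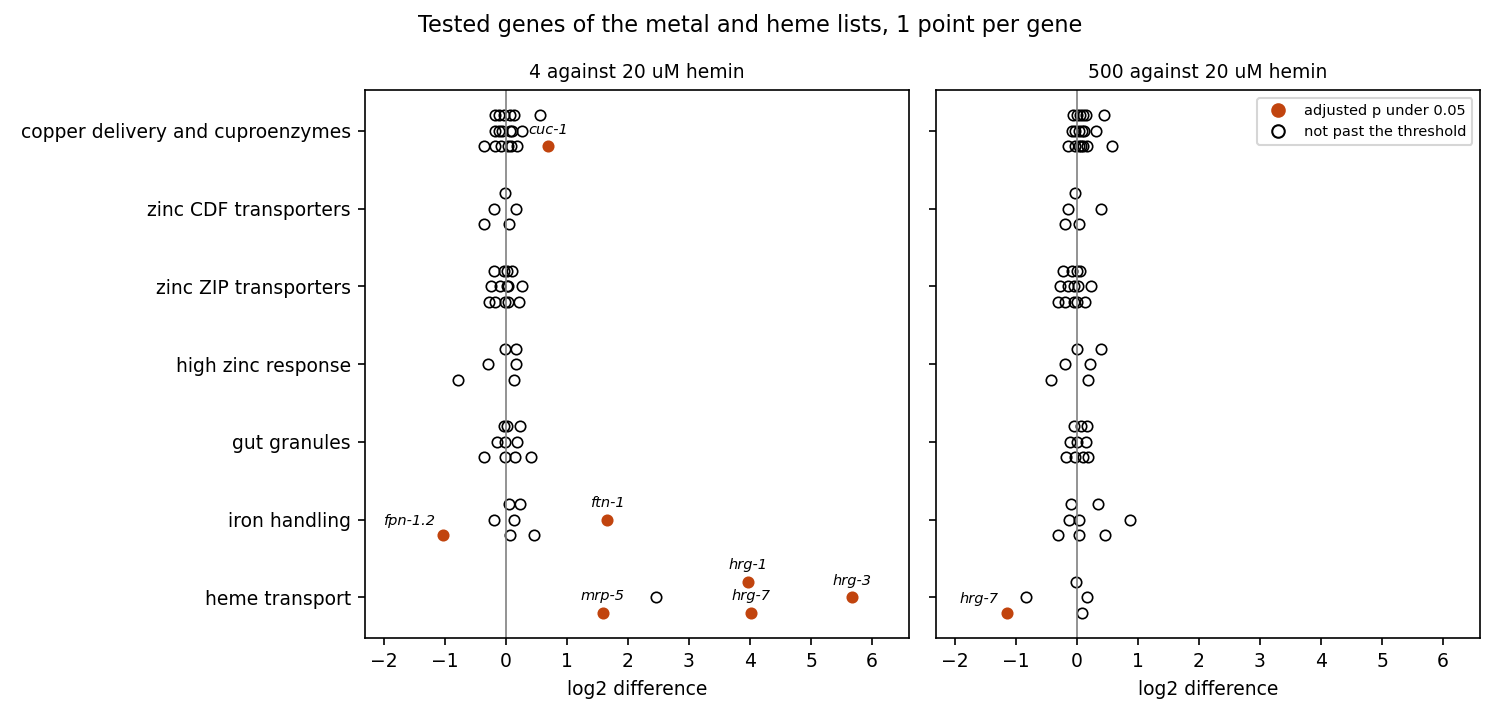
Log2 differences (horizontal axis) of the tested genes of 7 lists (vertical axis) at 4 against 20 µM hemin (left) and 500 against 20 µM hemin (right), 1 point per gene. Filled, named points passed an adjusted p of 0.05. The zinc lists have no filled point and the copper list has *cuc-1* alone on the left. The list of heme genes, labelled heme transport, reaches past 4. The heme genes were picked by the study from these samples.

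The 5 probe sets whose levels ran most like those of *cuc-1* over the 9 arrays read *meg-1* (Pearson r 0.967), *nep-10* (0.955), *rnr-2* (0.94), *egl-2* (0.939) and *mrp-5* (0.934). This is a description over 9 arrays that share 3 hemin groups, chosen as the highest of 15847 probe sets. *meg-1* encodes a germ granule protein, *nep-10* a peptidase of the neprilysin family, *rnr-2* a subunit of ribonucleotide reductase, *egl-2* a potassium channel and *mrp-5* a heme exporter. At 4 against 20 µM, *rnr-2* (1.06, adjusted p = 0.000335) and *mrp-5* (1.59, adjusted p = 0.000133) rose, while *meg-1* (0.26), *nep-10* (0.25) and *egl-2* (0.19) did not pass the test. Among the 7 metal genes, correlations with each other over the arrays ran from -0.729 (*cdf-1* with *zipt-2.3*) to 0.563 (*cuc-1* with *zipt-2.3*).

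The 8 protein-coding genes nearest to *cuc-1* on chromosome III, looked up after the values of *cuc-1* had been seen, gave 7 measured neighbours. None was called at 4 against 20 µM, and their differences ran from -0.36 (*tyr-1*) to 0.47 (*slc-17.3*, adjusted p = 0.416). The immediate neighbours on either side, *tomm-7* and *snr-5*, both differed by 0.06.

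Markers of some tissues moved with hemin. Summed over 12 oocyte genes, all measured, the log2 level was 12.15, 11.88 and 11.69 in replicates A, B and C at 4 µM. At 20 µM it was 11.39 to 11.41. All 12 differences were positive and 5 were called, where 0.911% of all tested probe sets were called at 4 against 20 µM.

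Over 17 of 20 sperm genes, 16 differences were positive and 0 were called at 4 against 20 µM, where that share was again 0.911%. The summed level was 15.06, 14.41 and 13.89 in replicates A, B and C at 4 µM, against 13.43 to 13.84 at 20 µM. Over 5 of 6 yolk genes it was 9.93 to 10.66 at 4 µM, against 8.13 to 9.14 at 20 µM, with 2 called. At 500 µM the sums were 11.13 to 11.45 for oocyte, 12.51 to 13.24 for sperm and 7.23 to 8.48 for yolk genes. At 500 against 4 µM, 5 of 12 oocyte, 12 of 17 sperm and 5 of 5 yolk genes were called lower. The share of all tested probe sets called there, in either direction, was 2.07%. The part of these germline and yolk differences in the values of *cuc-1*, *tbh-1* and *mtl-1* was not tested.

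Markers of the intestine, where much metal uptake and storage takes place, gave sums of 13.99 to 14.37 at 4 µM, 14.20 to 14.35 at 20 µM and 14.32 to 14.42 at 500 µM. These ranges overlapped, and 0 of 7 intestinal markers were called at 4 or 500 against 20 µM. Of all tested probe sets, 0.911% were called at 4 against 20 µM and 0.242% at 500 against 20 µM. Neuron markers gave sums of 10.30 to 10.39 at 4 µM, against 10.21 to 10.37 at 20 µM, with 0 of 5 called. Body muscle sums were 12.89 to 13.19 at 4 µM, against 12.90 to 13.07 at 20 µM, with 0 of 4 called. Hypodermis sums were 12.20 to 13.14 at 4 µM, against 12.80 to 12.95 at 20 µM. Only 2 of 7 hypodermis differences were positive and their median was -0.285, though 1 of 7 was called higher. No marker could be listed at 0, since the lowest log2 value in the table was 2.02.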

How the data were processed

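The values are the authors' deposited log2 expression levels, 1 for each probe set on each array, with medians of 5.43 to 5.47 on all arrays but replicate A at 4 µM (5.57). Per the submitters' processing notes MAS5 and RMA were used. Which of them gave these values, in what version, is not stated. Summarised, normalized log2 values can compress differences of dim probe sets. No detection calls or scan dates were used.

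Groups and replicate letters came from the labels. Of 22625 probe sets, 77 array controls were left out, and the dimmest 25% of the remaining 22548 by mean level (under 3.75) were not tested, which left 16911. limma 3.58.1 (R 4.3.3) fitted 1 mean per hemin concentration to all 9 arrays, with moderated tests that shared 1 estimate of the spread (6 residual degrees of freedom before moderation) and an intensity trend. P-values were adjusted by Benjamini-Hochberg over all 16911 probe sets, with a threshold of 0.05. Intervals are 95% intervals from the moderated standard errors. Any 2 arrays shared 243 to 1079 equal values among the gene probe sets, and none repeated another in full. The number of arrays limits the precision.

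Gene names came from the platform annotation. Of the gene probe sets, 20766 had 1 symbol, and others were not named. Where a gene had several probe sets, the brightest was used for it. Chromosomes and gene order came from RefSeq's gene table (WBcel235), in which all 7 genes matched.

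Named were all 7 genes, *hrg-1*, the genes of each list called in any comparison or else its 2 with the smallest F-test p, and the 5 probe sets most correlated with *cuc-1*. Other list members and neighbours were named after their values were seen. The members and lists were chosen with earlier results of these data known. Alternatives were quantile normalization, centring, other dim filters, no variance trend, a robust prior, a replicate block, array weights, gene means, a 1.6-fold minimum, the 6 arrays of a comparison alone, and leaving out each array.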

Additional observations from a re-analysis of the deposited data

How the results depend on the processing

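The count of 1 called gene at 4 against 20 µM, *cuc-1*, became 0 with quantile normalization, with centring of each array on its median and with the 6 arrays of the comparison alone (adjusted p of 0.0514, 0.0725 and 0.0997), and was 0 to 1 on leaving out 1 array. The count at 500 against 4 µM, 0 as reported, became 1 (*cuc-1*) with the dimmest 50% left out and with each gene's probe sets averaged (adjusted p of 0.0466 and 0.0478). The F-test's count of 1 became 0 with quantile normalization, centring, no filter on dim probe sets and the replicate block (adjusted p of 0.0536, 0.073, 0.0529 and 0.056), and was 0 to 1 on leaving out 1 array. The 6-array fit has fewer arrays to estimate the spread. The causes of these changes, that of the 6-array fit among them, were not tested. The count at 500 against 20 µM stayed 0 in every setting run.

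Of 396 recomputed differences of the 7 genes, 375 kept their direction and their side of the threshold, 10 lost and 2 gained a call, and 9 turned direction, all of them with no call. *cua-1* at 500 against 4 µM was 0.0017 after centring and -0.185 to 0.0552 on leaving out 1 array. The ranges on leaving out 1 array were -0.0624 to 0.113 for *cdf-1* at 500 against 20 µM, -0.0847 to 0.0581 for *cdf-2* at 4 against 20 µM and -0.189 to 0.154 for *zipt-2.1* at 500 against 20 µM.

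Whether the replicate letters shared across concentrations paired the arrays could not be decided. Deviations of same-lettered arrays from their group means correlated from -0.152 to 0.289, and those of differently lettered arrays from -0.333 to 0.314. Deviations within a group are tied to each other through the group mean, so these overlapping ranges neither show nor exclude pairing. With the letter as a replicate block, *cuc-1* had an adjusted p of 0.0469 at 4 against 20 µM and 0.0581 at 500 against 4 µM. The block ended the call of *tbh-1* at 500 against 4 µM (0.0534) and by the F-test (0.0827), and that of *ftn-1* at 4 against 20 µM (0.107). The block called 148 probe sets at 4 against 20 µM, against 154 without it, and 31 at 500 against 20 µM, against 41. Over all probe sets the count at 4 against 20 µM was 315 without replicate A at 4 µM, as low as 69 on leaving out another array (replicate A at 20 µM) and 899 with array weights, whose estimation did not fully converge. Over all settings run, the counts at 500 against 20 µM, 500 against 4 µM and by the F-test, reported as 41, 350 and 274, ran from 8 to 204, from 159 to 813 and from 146 to 1085. Detection calls were not used, so *zipt-2.3*, near the limit for dim probe sets, has no stated signal above background.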
